A study of Macaca fascicularis with 11 samples.

Results

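The comparison set cynomolgus monkey embryos carrying edited ISL1 beside wild-type embryos after culture to Day 12. All cells of the 4 Day 12 libraries entered, 13166 of the 33330 cells of the series, of which 11860 came from 2 mutant libraries and 1306 from 2 wild-type libraries. The mutant embryos had been injected as zygotes with Cas9 and a pair of guide RNAs against the start of the ISL1 coding sequence, and the labels call them ISL1_hypomorphic_mutant. They were mosaic, that is, different cells of an embryo carried different deletions, most of them frameshifts and a few in frame with loss of the first amino acids. Mutant library 1 pooled 3 embryos, mutant library 2 held 1 embryo, wild-type library 1 held 1 embryo and wild-type library 2 pooled 2 embryos. Embryos of both groups were grown in vitro from thawed blastocysts under the same culture protocol, so neither group had a uterus or a maternal blood supply.

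The edited segment was amplified for genotyping with a primer pair that spans both guide target sites. The 2 primers are shown because they bound the stretch of the gene in which the groups differ, and their genome coordinates were not determined here.
Forward: ctctttcagctttggcaacc
Reversed: gagcagatcaaattgcccat

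ISL1 encodes a LIM-homeodomain transcription factor known from heart, limb and motor neuron development, and it is also found in the early amnion of primates. In the peri-implantation embryo the trophoblast invades and makes hormones, the epiblast gives rise to the amnion and to the primitive streak, the hypoblast gives endoderm, and an extraembryonic mesenchyme lies between them. BMP4 is a secreted ligand that is made by amnion and extraembryonic mesenchyme in primates. Its receptors act through SMAD proteins, with the ID genes, MSX1, MSX2 and BAMBI among the genes they switch on. BMP and WNT signals together start the streak, where EOMES, MIXL1, MESP1 and TBXT come on.

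Each cell was placed in 1 of 4 lineages by its highest mean score over fixed marker genes: a trophoblast (T) lineage from CGA, XAGE3, PGF, KRT7, HSD3B1, VGLL1 and INSL4, an epiblast (E) lineage, which also takes in cells derived from the epiblast such as amnion, from POU5F1, IFITM1, L1TD1, DPPA4 and DNMT3B, an extraembryonic mesenchyme (M) lineage from COL3A1, COL1A1, COL6A2, HGF, CCDC80, HAND2 and POSTN, and an endoderm (N) lineage from APOA1, TTR, FOXA2, SOX17, IHH and VTN. Markers that the rule did not use followed the names. GATA2, GATA3, TFAP2A, DLX5 and GCM1 were highest in the T lineage in 20 of 20 pairs of gene and library, and the corresponding counts were 16 of 16 for the E lineage, 15 of 15 for the M lineage and 16 of 16 for the N lineage. Between 0.923% and 2.73% of the cells of a library had scores for 2 lineages within 0.5 of each other.

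The wild-type libraries stood apart from the mutant ones in size and depth, and from each other. They held 325 and 981 cells with a median of 142180 and 38687 UMIs (unique molecular identifiers, 1 per captured transcript), while the mutant libraries held 6018 and 5842 cells with a median of 18893 and 21836.5 UMIs. Library totals were 45493296 and 41274721 UMIs in wild type and 126436183 and 139693603 in the mutants. The correction for free RNA had removed 2.27% and 1.08% of the UMIs of the wild-type libraries and 4.35% and 7.99% of those of the mutant libraries. Wild-type library 1 held no M-lineage cell and only 15 E-lineage cells, so every M-lineage comparison rests on wild-type library 2 alone. RPL14, a ribosomal protein gene, was at 0 to 0.14 CPM (UMIs of a gene per 1000000 UMIs of the lineage in that library) in every lineage of wild-type library 2 and at 58.9 to 138 CPM in the other 3 libraries. Mutant libraries 1 and 2 shared 16 cell barcodes, and the other pairs of libraries shared at most 2.

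The first question was whether the make-up of the embryos differed. The T lineage made up 90.5% and 62.7% of the cells in wild type and 72.9% and 71.2% in the mutants. E-lineage cells were 4.62% and 16% in wild type against 11.6% and 4.74% in the mutants, so the wild-type values spanned a wider range than the gap between the groups. The M lineage, which makes the first extraembryonic matrix, was 0% and 19.4% in wild type and 13.3% and 23.6% in the mutants, and a count of 0 of 325 cells allows a share of up to 0.923% by a floor of 3 counts, or 1.13% as the upper Clopper-Pearson limit. N-lineage cells were 4.92% and 1.94% against 2.24% and 0.462%. Groups overlapped in every lineage. The mean difference, mutant minus wild type, was -4.51 percentage points for the T lineage, -2.14 for the E lineage, 8.73 for the M lineage and -2.08 for the N lineage. Exact two-sided permutation tests over libraries gave p = 1.0, 1.0, 0.667 and 0.667 in that order, each 1.0 after Benjamini-Hochberg adjustment over the 4 lineages, and the smallest p that 2 libraries against 2 can reach is 0.333. Leaving out wild-type library 1 turned the T-lineage difference to 9.37 and the M-lineage difference to -0.953 points. The E-lineage difference was 3.56 without wild-type library 2 and 1.29 without mutant library 2.

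**Figure D1:**
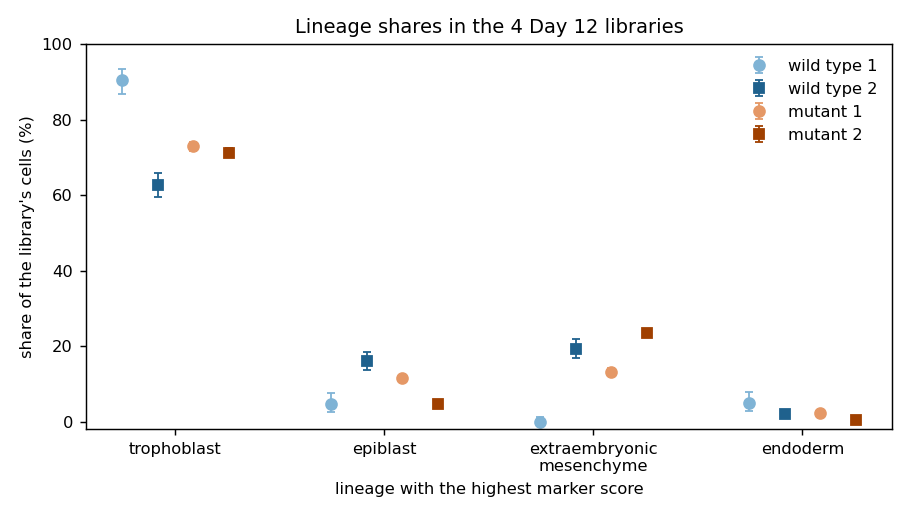
Share of the cells of each Day 12 library (vertical axis, %) in the 4 lineages, 1 point per library with its 95% Clopper-Pearson interval, which covers counting error only. Wild-type library 1 stands at 90.5% trophoblast and 0% extraembryonic mesenchyme, while the other 3 libraries lie between 62.7% and 72.9% trophoblast.

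The targeted gene was read first. In this droplet method the sequenced tags lie near the poly(A) end of a transcript, away from the edited start, so the UMIs of ISL1 (ENSMFAG00000035949) count its transcripts and do not show the edit. Whole libraries held 0.90 and 8.38 CPM in wild type and 1.42 and 2.83 in the mutants. ISL1 in the E lineage was 1.55 and 29.2 CPM in wild type and 4.48 and 52.8 in the mutants. The high library of each genotype was number 2, and the groups overlapped. In the T lineage ISL1 was 0.66 and 2.68 CPM against 0.85 and 1.12, and in the N lineage 8.18 and 22.2 against 7.23 and 11.6. In the M lineage both mutant libraries, at 1.91 and 0.44 CPM, lay below wild-type library 2, at 13.2 CPM, a log2 difference of -3.53 that did not pass the test. Wild-type library 1 has no M-lineage value to compare. Against wild-type library 2 alone, both mutant libraries were also lower in whole libraries and in the T and N lineages, but not in the E lineage.

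Depth per cell differed several-fold between libraries, so cells were also thinned to 5000 UMIs each before counting those with an ISL1 UMI. In the E lineage this share was 0% of 15 cells in wild-type library 1, which allows up to 20.0% by the floor of 3 counts and 21.8% by the Clopper-Pearson limit, and 11.6% of 155 cells in wild-type library 2. It was 2.30% of 695 cells and 18.4% of 272 cells in the mutant libraries. The T lineage, set beside it as a rough level of free RNA, had 0%, 1.14%, 0.393% and 0.616% in the same order of libraries. What part of the T-lineage UMIs was free RNA was not tested. Without thinning, the E-lineage shares were 20.0%, 24.8%, 5.30% and 31.8%, beside 8.84%, 8.78%, 1.62% and 2.57% in the T lineage. By this measure as well, the mutant libraries lay on both sides of wild-type library 2.

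Gene by gene, few differences passed the test across libraries. UMIs were summed per library and lineage, and the edgeR quasi-likelihood test with Benjamini-Hochberg adjustment at 5% called 0 of 16711 genes in whole libraries (0.0%), 1 of 15099 in the T lineage (0.00662%), 1 of 12536 in the E lineage (0.00798%), 0 of 12696 in the M lineage (0.0%) and 0 of 9849 in the N lineage (0.0%). At an unadjusted p under 0.05 the counts were 2003, 2251, 1205, 1404 and 685 genes in the same order, and the DESeq2 Wald test called 596, 707, 92, 189 and 11. Both mutant libraries lay above both wild-type libraries for 24.3% of genes in whole libraries, 28.9% in the T lineage, 22.0% in the E lineage and 21.7% in the N lineage, and below them for 16.5%, 18.8%, 14.9% and 14.4%. For the M lineage, with its single wild-type library, the shares above and below were 37.4% and 40.8%. Every log2 difference between the genotypes in this comparison rests on 2 mutant and 2 wild-type libraries, or 2 and 1 in the M lineage. The SE and p value also draw on the spread among libraries of the other days, which entered the same fit. The genes named for each list were chosen after their values were seen, apart from ISL1, BMP4, WNT6, TBXT, MIXL1, MESP1, EOMES and CDX2. These percentages are the background for the counts given for gene groups, which are described by how many members lay above or below. Group members all have a symbol, and genes with a symbol lay above more often in each lineage. Their shares above were 36.8% (T), 30.2% (E), 43.2% (M) and 30.3% (N). Their shares below were smaller than those of all genes in the T, E and M lineages and slightly larger in the N lineage. A lean toward higher values thus looks larger beside all genes than beside genes with a symbol. Where a gene is said to lie above or below without a call, its difference did not pass the test.

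With the batch number of the labels as a replicate block, in the 4 Day 12 libraries alone with 1 residual degree of freedom, 76 genes passed in the T lineage, 43 higher and 33 lower in mutants. The same fit called 16 genes in the E lineage, all higher, 57 in the N lineage, 35 higher and 22 lower, and 0 in whole libraries, where 689 genes were higher and 619 lower at an unadjusted p under 0.05. The M lineage could not be fitted in this way.

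The gene called in the T lineage, LOC102121218 (ENSMFAG00000037704), was at 36.6 and 31.0 CPM in wild type and 2.65 and 2.45 in the mutants. It fell by 3.80 on the log2 scale (SE 0.21, adjusted p = 0.000725). Lower mutant values were also seen in the E lineage, at 7.73 and 3.83 against 1.52 and 0.41 CPM, in the M lineage, at 9.58 against 8.45 and 0.20, and in the N lineage, at 81.8 and 37.0 against 19.3 and 0. The gene called in the E lineage has no symbol in the tables used here. ENSMFAG00000002765 was at 1.03 and 1.04 CPM in wild-type E-lineage cells and at 49.8 and 67.6 in mutant ones, and rose by 5.81 (SE 0.53, adjusted p = 0.00694). Its T-lineage values of 2.20 and 1.61 CPM against 25.5 and 54.4 gave an adjusted p of 0.165. High mutant values were present in every lineage, with 1.41 against 23.1 and 59.9 CPM in the M lineage and 3.27 and 2.47 against 21.2 and 60.3 in the N lineage. Each of the 2 calls was kept in 11 of 13 alternative analyses, with adjusted p between 4.74e-62 and 0.06 for LOC102121218 and between 1.01e-25 and 0.0688 for ENSMFAG00000002765. These analyses are not all distinct. The one with at least 20 cells per library equalled the main fit in the T lineage and the fit without wild-type library 1 in the E lineage.

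BMP4 (ENSMFAG00000040789), the ligand, lay below wild type in mutant M- and N-lineage cells and above it in T-lineage cells, and no member of the BMP list passed the test in any lineage (13 of 21 members had an identifier). In the M lineage BMP4 was at 270.2 CPM in wild type and at 150.3 and 97.5 in the mutants, a log2 difference of -1.08 (SE 0.43, adjusted p = 0.439). Several BMP-responsive genes lay on the same side there. MSX1 was at 44.9 against 21.9 and 15.1 CPM, MSX2 at 17.9 against 6.93 and 4.91, and TBX3, a T-box factor, at 121 against 69.9 and 35.8. BAMBI did not follow, at 776 against 1046 and 771 CPM, and HAND1 lay above wild type in both mutant libraries. Of the 13 members tested in M-lineage cells, 8 lay below wild type and 3 above (background 40.8% and 37.4%), with a median of -0.41. The list summed to 2254 CPM in wild type and to 2612 and 1965 in the mutants.

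In the T lineage BMP4 was low, with 1.61 and 5.78 CPM in wild type and 9.40 and 12.0 in the mutants. After thinning, 1.96% to 5.08% of T-lineage cells had a BMP4 UMI, and this lineage was also used as a rough level of free RNA. The part of free RNA in the T-lineage BMP4 values was not tested. The targets there did not share a direction. ID1, an inhibitor of bHLH factors, was at 16.3 and 39.4 CPM against 87.9 and 139, a log2 difference of 2.01 (adjusted p = 0.213). Its relative ID2 went the other way, at 109 and 94.3 against 34.3 and 41.9 CPM. MSX2, a homeobox repressor, was at 442 and 273 CPM in wild type and 83.3 and 94.9 in the mutants, a difference of -2.09 (SE 0.49, adjusted p = 0.203). TBX3 was at 242 and 131 CPM against 76.8 and 50.2. In all, 3 of 12 members lay above and 4 below both wild-type libraries in T-lineage cells, where the background was 28.9% and 18.8%. Without wild-type library 1 the counts were 6 above and 4 below, beside 40.2% and 43.4% of all genes.

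E-lineage BMP4 followed the library number, with 2.06 and 103 CPM in wild type and 33.9 and 98.9 in the mutants, and so did MSX1, MSX2 and TBX3. BAMBI, a decoy receptor of the pathway, was at 54.1 and 190.1 CPM against 247 and 493, and ID1 at 352 and 777 against 919.5 and 1609. These 2 genes, ID2 and ID3 were the 4 of 13 members above both wild-type libraries. That is 30.8%, beside 22.0% of all genes and 30.2% of genes with a symbol. After thinning, 0%, 28.4%, 11.9% and 30.1% of E-lineage cells had a BMP4 UMI, in the order wild-type 1 and 2 and mutant 1 and 2, while T-lineage cells stood at 1.96% to 5.08%. N-lineage BMP4 was at 27.8 and 46.9 CPM against 20.7 and 23.2, and MSX2 at 120.2 and 81.5 against 49.7 and 53.4. In that lineage 5 members lay above and 3 below (background 21.7% and 14.4%). The fitted E-lineage difference of BMP4, 0.31, turned to -0.62 without wild-type library 1 and to -0.59 without mutant library 2.

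**Figure D2:**
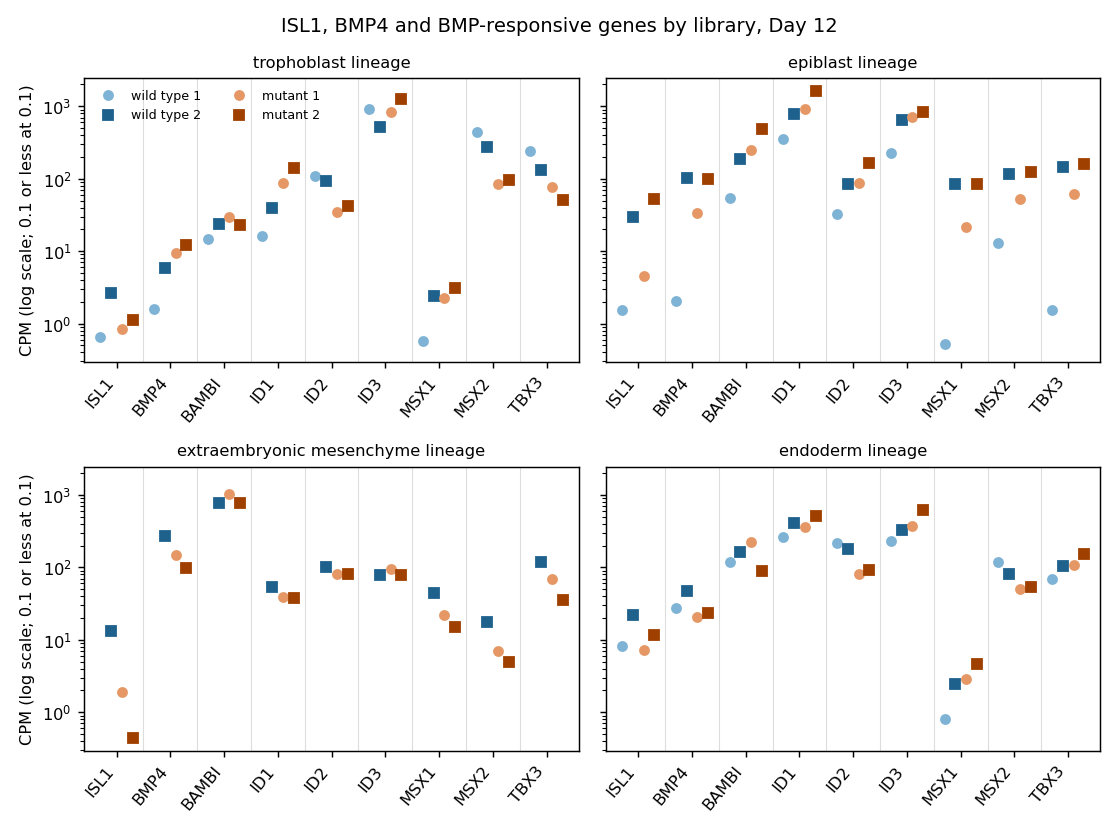
CPM (vertical axis, log scale) of ISL1, BMP4 and BMP-responsive genes in the 4 lineages, 1 symbol per Day 12 library, with no wild-type library 1 in the extraembryonic mesenchyme. MSX2 in the trophoblast lineage lies lower in both mutant libraries (83.3 and 94.9 CPM) than in both wild-type libraries (442 and 273), while in the epiblast lineage ISL1 and BMP4 are high in library 2 of each genotype.

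The streak genes of the E lineage separated wild-type library 2 from the other 3 libraries. EOMES, a T-box factor of streak and endoderm, was at 0 and 47.3 CPM in wild type and at 7.43 and 6.70 in the mutants. MIXL1 was at 4.64 and 117 against 22.1 and 7.11 CPM, and MESP1, which marks nascent mesoderm, at 0.52 and 115 against 25.3 and 2.64. Both mutant libraries thus lay between the 2 wild-type libraries for all 3 genes. LHX1 followed the same pattern with 3.09 and 97.4 against 5.66 and 10.2 CPM, and so did WNT8A, a streak ligand, with 0 and 29.7 against 4.81 and 4.67. TBXT (brachyury) was scarce, at 0 and 1.39 CPM against 0.42 and 0.41, and MSGN1 had no UMI in any of the 4 libraries.

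None of the 20 streak genes tested passed, and 0 lay above both wild-type libraries and 1 below (background 22.0% and 14.9%). In wild-type library 1, 7 of the 20 had no E-lineage UMI, so these could not lie below both. The median log2 difference was -0.45 beside 0.00 over all genes. Without the low-count filter, where 493 E-lineage genes passed, the edgeR test called LHX1 (log2 difference -2.70, adjusted p = 1.6e-10), MIXL1 (-1.99, adjusted p = 1.71e-07), MESP1 (-1.96, adjusted p = 2.43e-07) and EOMES (-1.78, adjusted p = 0.000335). With the filter, the edgeR log2 differences of these genes were nearly the same and their adjusted p lay between 0.48 and 0.668. The small values thus depend on the filter, and the wild-type libraries lay far apart for each gene. Against wild-type library 2 alone, 14 of the 20 lay below in both mutant libraries, beside 41.5% of all E-lineage genes. The difference turned sign without wild-type library 2, to 9.36 for EOMES, 1.61 for MIXL1, 4.73 for MESP1, 1.20 for LHX1 and 5.30 for TBXT. The list summed to 249 and 1301 CPM in wild type and 548 and 942 in the mutants, and 15 E-lineage cells were all that wild-type library 1 gave. In thinned E-lineage cells wild-type library 2 had the highest share for MIXL1, EOMES and MESP1. MIXL1 UMIs were found in 0%, 22.6%, 6.04% and 3.31% of the cells, EOMES UMIs in 0%, 15.5%, 2.59% and 3.31%, and MESP1 UMIs in 0%, 9.68%, 2.88% and 2.21%. The 0% of wild-type library 1 comes from 15 cells, and its Clopper-Pearson limit of 21.8% takes in every mutant value. In thinned T-lineage cells no library passed 2.12% for MIXL1, 0.326% for EOMES or 1.29% for MESP1. Thinned TBXT UMIs were in at most 0.735% of the E-lineage cells of a library. Without thinning, MIXL1 UMIs were in 53.3% of the E-lineage cells of wild-type library 1, the highest of the 4 libraries, and in 42.0%, 10.0% and 7.58% of the others, beside 21.8% and 13.7% of the T-lineage cells of the wild-type libraries. Unthinned MESP1 UMIs were in 17.7% and 7.48% of those T-lineage cells and in 6.67% (1 of 15) and 23.6% of the wild-type E-lineage cells. In the mutants they were in 5.267% and 4.085% of T-lineage cells and 4.155% and 4.332% of E-lineage cells. The T lineage thus had the higher MESP1 share in library 1 of each genotype. Unthinned TBXT UMIs were in 5.10% of the E-lineage cells of wild-type library 2 and 0.716% and 0.722% of those of the mutant libraries.

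CDX2, a caudal homeobox gene of posterior embryo and extraembryonic tissue, did not share that pattern. E-lineage values were 7.21 and 199 CPM in wild type and 84.1 and 189 in the mutants, so library 2 was the high one in both genotypes. The fitted difference of 0.41 turned to -0.52 without wild-type library 1 and -0.23 without mutant library 2. The HOX genes, which pattern the posterior body, had no UMI in the 15 E-lineage cells of wild-type library 1 for 13 of 15 members. Summed over the list they reached 1.03 and 395 CPM in wild type against 61.5 and 238 in the mutants. Again 0 of 15 lay above or below both wild-type libraries (background 22.0% and 14.9%). A member with no UMI in wild-type library 1 could not lie below both, so the count below could not show a fall for those members. Against wild-type library 2 alone 11 lay below, beside 41.5% of all genes. HOXD4 was at 30.4 CPM against 7.88 and 6.13 in the M lineage, where 8 of 12 members lay below wild type and 2 above (background 40.8% and 37.4%).

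Of 16 amnion-associated genes 9 lay above both wild-type libraries and 0 below, where the background was 22.0% and 14.9%, in mutant E-lineage cells, and the median log2 difference was 1.77. None passed the test. The list summed to 226 and 419 CPM in wild type and 316 and 797 in the mutants, so mutant library 1 lay between the wild-type libraries. WNT6, a ligand of the amnion, was at 1.55 and 1.74 CPM in wild type and 4.05 and 21.3 in the mutants (log2 difference 2.85, adjusted p = 0.414). TFAP2C, an AP-2 factor, was at 16 and 16 CPM against 25.8 and 61.1, and CDO1, a cysteine dioxygenase, at 5.15 and 48.0 against 57.9 and 243. GABRP, a GABA receptor subunit, was low throughout, with 0 and 0.17 CPM against 0.59 and 4.67. Mutant library 2 was the highest of the 4 libraries for each of these genes, and its embryo was a single one. After thinning, WNT6 UMIs were found in 0%, 1.29%, 2.01% and 6.25% of E-lineage cells and in 0.680%, 0%, 0.809% and 0.739% of T-lineage cells. ISL1 is itself on this list.

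**Figure D3:**
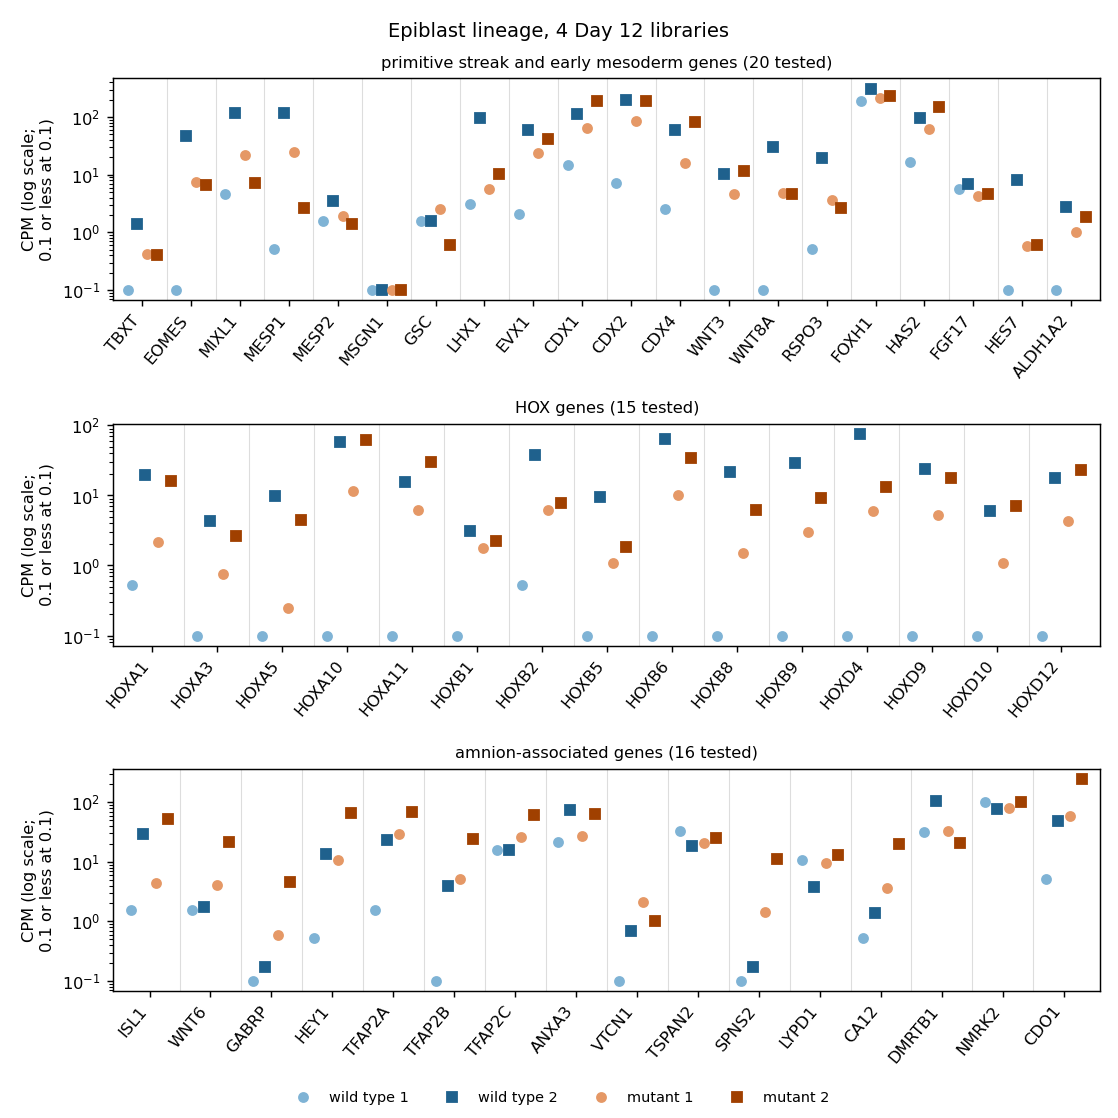
CPM (vertical axes, log scale, values of 0.1 or less drawn at 0.1) of 20 streak and early mesoderm genes, 15 HOX genes and 16 amnion-associated genes in E-lineage cells of the 4 Day 12 libraries. Streak and HOX genes are high in wild-type library 2 and low in wild-type library 1, which has 13 of 15 HOX genes at 0, and the mutant libraries mostly fall between them, while 9 of 16 amnion-associated genes lie above both wild-type libraries in both mutant ones.

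The amnion list shares AP-2 genes with the trophoblast, and the summed trophoblast markers were higher in both mutant libraries than in wild type in the E and M lineages, while the groups overlapped in the N lineage. The 7 T rule markers summed to 150.4 and 168 CPM in wild-type E-lineage cells and to 399 and 389.7 in mutant ones, beside 11280 to 17580 in the T lineage. Hormone and trophoblast genes led this. CGA, the common alpha subunit of the gonadotropins, was at 0 and 18.6 CPM against 149 and 250 in the E lineage, which is 0% and 0.251% of its T-lineage level in wild type and 2.43% and 3.93% in the mutants. LAIR2, a soluble collagen-binding receptor of invasive trophoblast, reached 3.15% and 0.512% of its T-lineage level in mutant E-lineage cells and at most 0.108% in wild type. M-lineage sums of the T markers were 96.6 CPM in wild type against 254 and 265, and N-lineage sums were 693 and 83.9 against 737 and 464. CGA in the N lineage was 5.13% and 0.366% of its T-lineage level in wild type and 6.94% and 0% in the mutants. Of 16 trophoblast regulators 13 lay above both wild-type libraries in the E lineage (background 22.0%). In the M lineage 12 lay above the wild-type library (background 37.4%), and in the N lineage 7 of 14 lay above (background 21.7%). The summed N-lineage level of the list was 1833 and 2061 CPM in wild type and 1744 and 2026 in the mutants. What part this RNA has in the amnion counts was not tested.

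Of the 5 E rule markers, which chose the cells and are given as a description, 3 lay below both wild-type libraries in mutant E-lineage cells and 1 above (background 14.9% and 22.0%), with a median of -0.50. Their sum was 4408 and 4130 CPM in wild type and 3659 and 3846 in the mutants. DPPA4 was at 749 and 917 CPM against 523 and 360, L1TD1 at 590.3 and 545 against 435 and 305, and DNMT3B, a DNA methyltransferase, at 337 and 294 against 277 and 178. POU5F1 was the marker above, at 1356 and 1294 CPM against 1430.5 and 1528, and IFITM1 overlapped. NANOG, which the rule did not use, was at 249 and 153 against 240.1 and 149. Of the 21 genes tested from the pluripotency list, NANOG among them, 3 lay above and 4 below, with a median of -0.46 and no call. These shares were 14.3% and 19.0%, beside 22.0% and 14.9% of all genes and 30.2% and 11.5% of genes with a symbol. Without wild-type library 1 the counts were 7 and 7, beside 35.3% and 41.5% of all genes. The 3 above were CD24, at 472 and 348 CPM against 581 and 634, DPPA2, at 8.76 and 16.4 against 24.2 and 20.1, and GDF3, a TGF-beta family ligand, at 15.4 and 20.5 against 23.2 and 33.3. The 4 below were LIN28A, NLRP2, NLRP7 and OOEP. LIN28A, an RNA-binding protein that blocks let-7, was at 553 and 914 CPM against 392 and 301 (log2 difference -1.08, SE 0.26, adjusted p = 0.356). NLRP2, a maternal-effect gene, was at 478 and 500 CPM against 218 and 110.5 (log2 difference -1.59, SE 0.33, adjusted p = 0.338). NLRP2 was also lower in mutant T-lineage cells, at 95.3 and 204 against 76.3 and 50.6 CPM, in M-lineage cells, at 189 against 77.2 and 38.3, and in N-lineage cells, at 896 and 457 against 245 and 149. OOEP, of the same maternal complex, was at 131 and 209 CPM against 82.8 and 23.2 in the E lineage.

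The hypoxia and glycolysis list holds genes that HIF factors induce when oxygen is short or that carry out glycolysis. Of its 45 genes, 33 had a symbol in the study's gene tables, which report its own results on these data. These 33 leaned to higher values in the mutants in all 4 lineages, and the other members could not be read. No member passed the test. In the E lineage 25 of 33 lay above both wild-type libraries and 0 below (background 22.0% and 14.9%), 19 had an unadjusted p under 0.05, and the median log2 difference was 1.40, or 1.39 with genes at 0 in wild type set at their bound. In the T lineage 24 lay above and 2 below (background 28.9% and 18.8%), with a median of 0.63. In the M lineage 24 lay above and 2 below (background 37.4% and 40.8%) with a median of 1.14. In the N lineage 20 lay above and 1 below (background 21.7% and 14.4%) with a median of 1.07. Without wild-type library 1 the counts above were 25, 30 and 26 in the T, E and N lineages, beside 40.2%, 35.3% and 33.8% of all genes, and those below were 6, 1 and 3.

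P4HA2, a collagen prolyl hydroxylase, was at 5.91 and 8.92 CPM in wild type and 43.8 and 60.3 in the mutants in the T lineage (log2 difference 2.78, SE 0.57, adjusted p = 0.203). The E-lineage values were 2.58 and 5.22 against 23.7 and 77.6 CPM, those of the M lineage 14.1 against 33.6 and 117, and those of the N lineage 16.4 and 44.4 against 63.6 and 211. SLC16A3, the lactate exporter MCT4, was at 28.0 and 31.2 against 90.9 and 134 CPM in the T lineage, 3.09 and 6.78 against 30.6 and 113 in the E lineage, 31.7 against 148 and 236 in the M lineage, and 17.2 and 7.41 against 87.3 and 341 in the N lineage. Both mutant libraries lay above wild type in all 4 lineages for both genes. The other shared members included ANKRD37, at 0.99 and 1.57 against 5.64 and 8.63 CPM in the T lineage and 1.03 and 4.17 against 25.6 and 55.2 in the E lineage, and the glycolytic enzyme TPI1, at 472 and 373 against 996 and 2214 in the E lineage.

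Mutant library 2, the single embryo, had the higher value of the mutant pair for 28 of the 33 genes in the T lineage, 32 in the E lineage, 30 in the M lineage and 28 in the N lineage, while over all genes tested it was the higher one for 43.4%, 55.8%, 45.1% and 43.6%. The list thus leaned toward mutant library 2 within the mutant pair, beside its lean toward the mutants. Neither lean was tested for the list as a whole. NDUFA4L2, a HIF target of mitochondrial complex I, showed the widest gap, with 0 and 0 CPM in wild-type E-lineage cells against 2.45 and 64.2, at least 85.4-fold higher in the mutants over a floor of 3 counts in the wild-type group. That bound rests on mutant library 2, and for mutant library 1 alone it was 6.28-fold. A few members lay below wild type. In the T lineage the glucose transporter SLC2A1 was at 381 and 263 CPM against 192 and 207, and PFKFB4, a regulator of glycolysis, at 13.1 and 8.42 against 5.89 and 5.12. P4HA1 was at 708 against 225 and 445 CPM in the M lineage, and ANGPTL4, a lipase inhibitor, at 117 and 81.5 against 44.8 and 25.5 in the N lineage.

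EPAS1 encodes HIF2A, the hypoxia factor of trophoblast and endothelium, and was called for a difference between lineages. In the E lineage it was at 0.52 and 0.87 CPM in wild type and 11.1 and 25.8 in the mutants (log2 difference 4.55, SE 0.60, adjusted p = 0.116). T-lineage values were 72.9 and 72.0 against 84.7 and 116 CPM, so the E-lineage level was 0.706% and 1.21% of the T-lineage level in wild type and 13.1% and 22.3% in the mutants. In the same mutant cells CGA stood at 2.43% and 3.93% of its T-lineage level and DLX5, also highest in the T lineage, at 7.63% and 35.0%. The part of trophoblast RNA in the E-lineage EPAS1 values was not tested. The test of the difference between lineages, with the library as a block, gave 3.99 (SE 0.54, adjusted p = 0.0256) for E minus T. EPAS1 did not pass without the block, and in simulated data this fit made more false calls than its nominal rate.

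**Figure D4:**
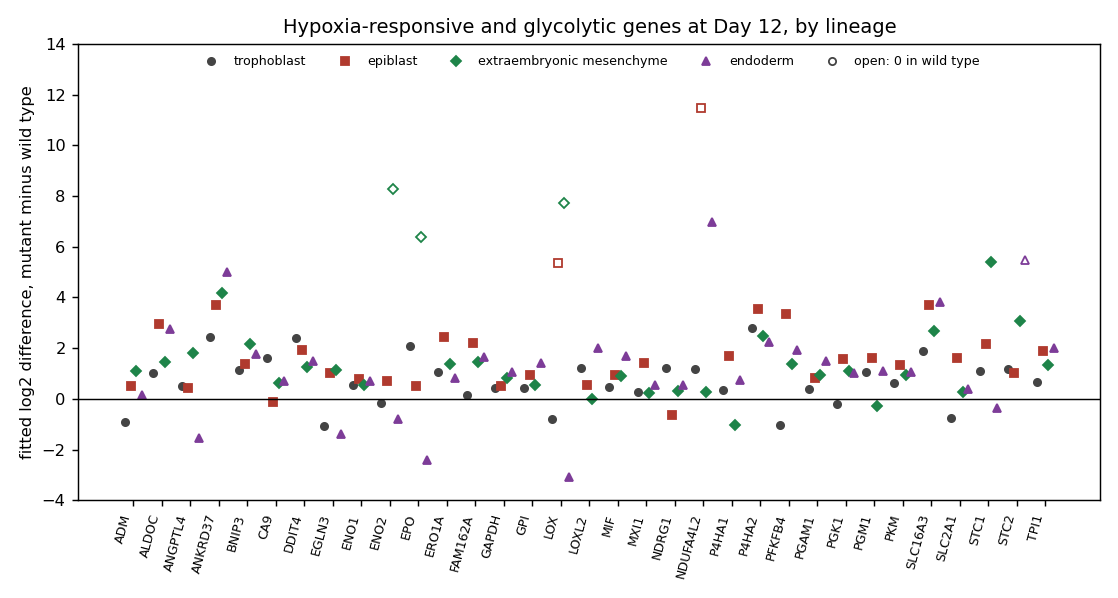
Fitted log2 difference, mutant minus wild type (vertical axis), of 33 hypoxia-responsive and glycolytic genes in the 4 lineages. Open symbols mark genes at 0 in every wild-type library of that lineage, whose fitted value depends on the prior count. Most symbols lie above 0, with medians of 0.63 in the trophoblast, 1.40 in the epiblast, 1.14 in the extraembryonic mesenchyme and 1.07 in the endoderm lineage.

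Trophoblast cells were the bulk of every library. Of 16 regulators of trophoblast identity and related genes 8 lay below both wild-type libraries in mutant T-lineage cells and 1 above (background 18.8% and 28.9%), with a median log2 difference of -0.34 and no call. The sum of the list, most of it from CDKN1C, overlapped between the groups, at 13960 and 8530 CPM in wild type and 8977 and 10100 in the mutants. Without wild-type library 1, 9 lay below and 5 above, beside 43.4% and 40.2% of all genes. GATA3 was at 349 and 303 CPM in wild type and 200.1 and 208 in the mutants (log2 difference -0.74, adjusted p = 0.213). GATA2 was at 351 and 259 against 189.6 and 152, and TFAP2A at 241 and 156 against 111 and 106. TFAP2C was at 108 and 77.2 against 60.0 and 52.1 CPM. All 4 are transcription factors that act in specifying trophoblast. Of the 7 T rule markers, which chose the cells and are given as a description, 4 lay below and 1 above, with a median of -0.36. CGA was among those below, at 11374 and 7415 CPM against 6124 and 6371.

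Invasive trophoblast genes went the other way. Of the 13 members of the list 10 had an identifier. In the T lineage 8 of these lay above both wild-type libraries and 0 below (background 28.9% and 18.8%). The median log2 difference was 1.34, again with no call. LAIR2 was at 393 and 323 CPM in wild type and 942 and 1031 in the mutants. ISM2 was at 77.3 and 204 against 480 and 599, ECM1, an extracellular matrix protein, at 175 and 71.2 against 576 and 661, and PECAM1, an adhesion molecule of endothelium and endovascular trophoblast, at 128 and 194 against 376 and 426. Their adjusted p values lay between 0.277 and 0.31. INSL4, a relaxin-family hormone, is not on this list and was the 1 T rule marker above. Given as a description, it was at 836 and 644 CPM against 1760.3 and 2018. The list summed to 1376 and 1432 CPM in wild type and 3273 and 3888 in the mutants.

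**Figure D5:**
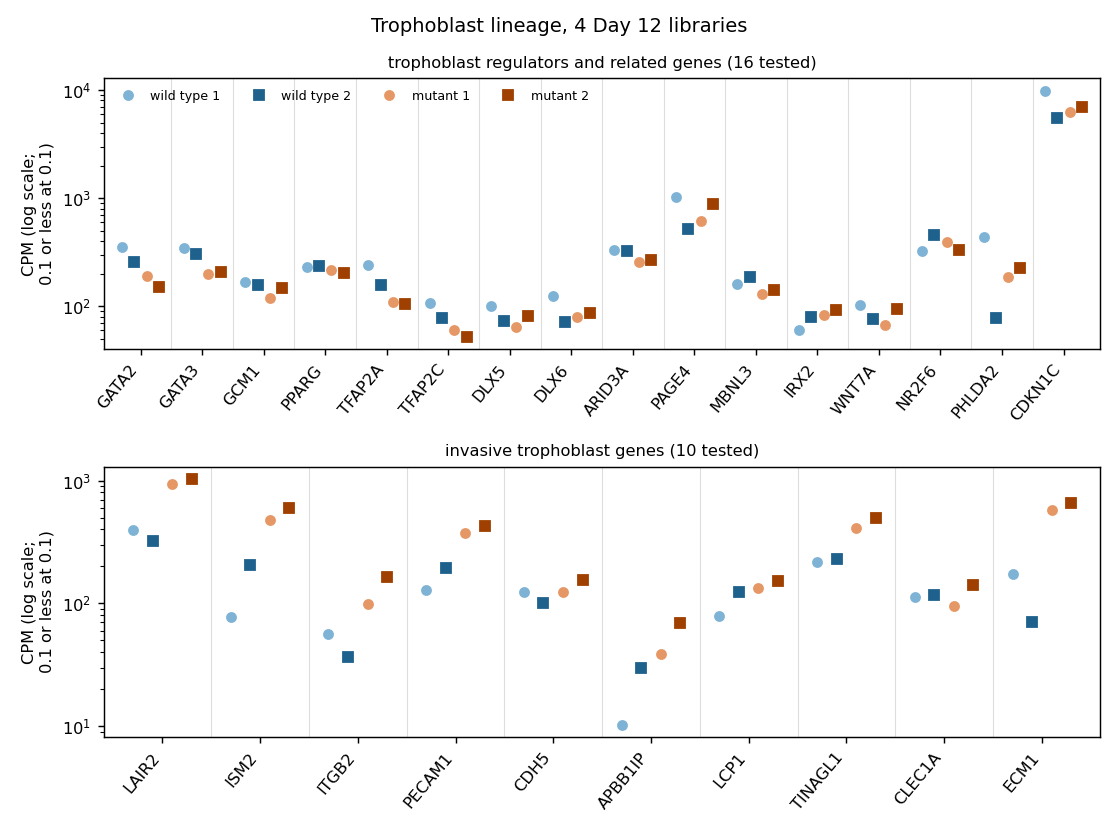
CPM (vertical axes, log scale) of 16 trophoblast regulators and related genes and of 10 invasive trophoblast genes in T-lineage cells, 1 symbol per Day 12 library. GATA2, GATA3, TFAP2A and TFAP2C lie lower in both mutant libraries, and LAIR2, ISM2, ECM1 and PECAM1 higher, than in both wild-type libraries.

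Matrix genes also leaned to higher values in mutant T-lineage cells. There 16 of 27 lay above both wild-type libraries and 0 below (background 28.9% and 18.8%), with a median of 0.85 and no call. Without wild-type library 1 the counts were 19 above and 5 below, beside 40.2% and 43.4% of all genes. FN1, fibronectin, was at 4.72 and 43.9 CPM against 216 and 233. TIMP1, a metalloproteinase inhibitor, was at 0.57 and 2.50 against 15.7 and 14.9 CPM (log2 difference 3.34, SE 0.54, adjusted p = 0.199), and IGFBP3, an IGF carrier, at 0.92 and 4.75 against 77.6 and 146. Mesenchyme genes also lay higher there. The 7 M rule markers summed to 16.4 and 37.0 CPM in wild-type T-lineage cells and 43.8 and 51.5 in mutant ones, and 9 of 12 mesenchyme regulators lay above. Wild-type library 1, which held no M-lineage cell, was the lowest of the 4. The part of mesenchymal RNA in the matrix result was not tested.

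In the M lineage, where IGFBP3 and fibronectin are made in quantity, the matrix list split evenly with 9 of 26 above and 9 below. IGFBP3 was at 195 CPM in wild type and 835 and 1602 in the mutants, and HGF, a rule marker, at 1372 against 569 and 717. STC1, a secreted glycoprotein of the hypoxia list, was at 0.56 against 27.6 and 19.1 CPM. Lower in the mutants were CDH2 (N-cadherin), at 749 against 137 and 104 CPM (log2 difference -2.59, SE 0.54, adjusted p = 0.306), and WNT5B, at 25.2 against 4.19 and 1.96 (log2 difference -3.01, adjusted p = 0.293). Of 12 mesenchyme regulators, CDH2 among them, 2 lay above and 7 below (background 37.4% and 40.8%), with a median of -0.16. HAND1 was at 693 against 998 and 757 CPM and PITX1 at 1219 against 1164 and 762. All of these rest on 190 cells of 1 wild-type library.

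The N lineage was the smallest, with 16, 19, 135 and 27 cells in the 4 libraries. Of 23 endoderm genes 1 lay above and 6 below (background 21.7% and 14.4%), the median was -0.18, and none passed. Without wild-type library 1 the counts were 2 above and 15 below, beside 33.8% and 40.5% of all genes. Of the 6 N rule markers, given as a description, 2 lay below and 1 above, with a median of -0.08 and overlapping sums of 71160 and 51020 CPM in wild type and 63210 and 55880 in the mutants. FOXA2 and VTN were the 2 below, at 149 and 232 CPM against 115 and 102 and at 830.1 and 817 against 537 and 248, and SOX17 was the 1 above, at 318 and 247 against 402 and 455. S100A14 was at 1126 and 992 CPM in wild type and 524 and 288 in the mutants, and NID2, a basement membrane protein, at 535 and 590 against 303 and 34.8. Several genes of other lineages were higher in mutant N-lineage cells. COL3A1, a mesenchymal collagen, is an M rule marker that helped choose the cells and is given as a description. It had no UMI in the 35 wild-type cells and 42.9 and 41.8 CPM in the mutants. That is at least 23.0-fold higher over the floor of 3 counts in the wild-type group, a bound that leaves out the spread between libraries. The M rule markers summed to 98.1 and 111 CPM against 236 and 202, 9 of 10 invasive trophoblast genes lay above, and their part in the N-lineage values was not tested. CCND1, cyclin D1, was at 0 and 9.87 CPM against 74.2 and 55.7 (adjusted p = 0.204).

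No member of the remaining lists passed the test. Over all genes tested, 28.9% lay above and 18.8% below in the T lineage, and 22.0% and 14.9% in the E lineage. The shares were 37.4% and 40.8% in the M lineage and 21.7% and 14.4% in the N lineage. Cell cycle genes lay above in 10 of 22 and below in 5 in the T lineage, and above in 3 and below in 5 in the E lineage. Stress genes of the E lineage lay above in 7 of 17 and below in 3, led by HSPB1, a small heat shock protein, at 302 and 398 CPM against 638 and 781. Of the WNT list 4 of 15 (26.7%) lay above and 0 below in the E lineage, the share above being near that of all genes. The secreted antagonist SFRP1 was among the 4, at 23.2 and 20.2 CPM against 94.9 and 96.9. Of the FGF list 1 of 9 lay above and 3 below. Of 6 imprinted genes 4 lay above both wild-type libraries and 0 below in the E lineage, with a median of 1.08, and 4 lay above and 1 below in the M lineage, with a median of 0.86, while 1 lay above in each of the T and N lineages. PHLDA2, which is also on the trophoblast regulator list, was at 0 and 1.39 CPM against 9.54 and 9.14 in the E lineage. DLK1, a NOTCH-related ligand, was at 2.58 and 1.39 CPM against 4.73 and 19.7 in the E lineage. NNAT was at 3.52 CPM against 11.3 and 20.4 in the M lineage. Mitochondrially encoded genes had median log2 differences between -0.15 and 0.15 in the 4 lineages.

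Whether the genotype difference at Day 12 differed from that at Day 14 was tested as an interaction. It was called for 1 of 15099 genes in the T lineage (0.00662%) and for none in whole libraries or the E, M and N lineages (0.0% in each), where the DESeq2 Wald test called 201 in the T lineage, 137 in whole libraries and 50, 74 and 8 in the E, M and N lineages. At an unadjusted p under 0.05 edgeR counted 595 higher and 650 lower in whole libraries, 428 and 533 in the E lineage, 545 and 671 in the M lineage, and 236 and 280 in the N lineage. The gene was LOC102121218, at 28.4 and 31.8 CPM in wild-type and 18.8 and 18.1 CPM in mutant T-lineage cells at Day 14, so the Day 12 difference exceeded the Day 14 one by -3.11 on the log2 scale (SE 0.27, adjusted p = 0.0307). Wild-type T-lineage levels lay between 28.4 and 36.6 CPM over both days.

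Differences between lineages within Day 12 were called for 34 of 14047 genes between the E and T lineages (0.242%), 4 between M and T (0.0285%) and 10 between N and T (0.0712%), with the library as a block because lineages of 1 library share its embryos. Without the block the edgeR counts were 0, 1 and 0, with 541 higher and 421 lower at an unadjusted p under 0.05 for E minus T and 412 and 424 for N minus T. The calls of the blocked fit are subject to the excess of false calls seen in simulated data for E minus T. Of the 14 E minus T calls with a symbol 10 were negative, that is, the genotype difference was lower in the E than in the T lineage. SERPINE2, a protease inhibitor, was at 3.90 and 3.32 CPM against 57.0 and 54.4 in the T lineage and at 16.5 and 46.6 against 23.9 and 16 in the E lineage. LAPTM4B, a lysosomal membrane protein, was at 64.4 and 91.2 against 329 and 363 CPM in the T lineage and at 504 and 431 against 472 and 713 in the E lineage. DNMT3L, a cofactor of DNA methylation, differed the other way, with 141 and 20.1 CPM against 8.07 and 3.25 in the T lineage and 99.4 and 33.6 against 41.2 and 34.3 in the E lineage. The E minus T values were -4.49, -1.87 and 2.69 on the log2 scale, with adjusted p of 0.0256, 0.0256 and 0.041.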

How the data were processed

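Libraries were made by droplet-based single-cell RNA sequencing. Reads had been mapped to Macaca_fascicularis_5.0 and counted by the authors with Cell Ranger 3.1.0, who then filtered cells on mitochondrial share and gene number. The deposited values are expected counts, UMI counts from which the authors had subtracted ambient RNA with SoupX, in whole numbers. The authors also deposited uncorrected counts, used here as an alternative. Of 19367 genes, 1019 have a symbol, taken from the study's gene tables, and 291 of 329 genes of the 20 lists have an identifier. No coordinates are given, and 1 of the genes called between lineages is not reported here. Subtraction and free RNA affect low values most.

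Members and lists were chosen with earlier results of these data known. Cells were scored by the mean ln(1 + 10000 × UMI / total) over the rule genes, doublets were marked but kept, and UMIs were summed per library and lineage where at least 5 cells were present. All 11 libraries of the series, 1 mean per genotype and day, entered edgeR 4.0.16 in R 4.3.3 (TMM factors, filterByExpr, two-sided quasi-likelihood test, Benjamini-Hochberg adjustment at 5%), with 5 residual degrees of freedom, or 3 in the M lineage, whose single wild-type library was assumed to vary like the others. Fits were tested on simulated data. Genes to be named were ISL1, BMP4, WNT6, TBXT, MIXL1, MESP1, EOMES and CDX2, up to 4 passing members of each list, and up to 8 passing genes each way per lineage. As 2 genes passed, the others named were chosen after their values were seen. CPM divide by the total of the library's lineage. Shares have 95% Clopper-Pearson intervals. Alternatives were median-ratio factors, DESeq2 1.42.0, no low-count filter, Day 12 libraries alone, a replicate block, uncorrected counts, other cell filters, a 1% threshold, and leaving out each library.

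The batch number in the labels does not say that same-numbered libraries share anything. Deviations of same-numbered libraries from their group means correlated at 0.159 (whole), 0.069 (T), 0.172 (E) and 0.066 (N) over genes, with 2 pairs.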

Additional observations from a re-analysis of the deposited data

Results flagged for a closer look

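The genotype difference of LOC102121218 in the T lineage differed between days by -3.11 (Day 12 minus Day 14, log2), as described. The other results of this kind are differences between lineages at Day 12, mutant minus wild type in the lineage minus the same in the T lineage, on the log2 scale, from edgeR with the library as a block. Each was called by a test of the difference itself, and without the block the 3 contrasts gave 0, 1 and 0 calls. In simulated data the E minus T fit made more false calls than its nominal rate, and the other contrasts were not simulated, so a part of the calls listed may be false.

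For the E lineage, negative values were found for CRABP2 (-1.92), which binds retinoic acid, DPYSL3 (-3.08), LAPTM4B (-1.87), LRRIQ1 (-4.24), SERPINE2 (-4.49), HINT2 (-1.83), ITM2B (-1.16), CKLF (-1.52) and TUBB6 (-2.94), a tubulin. CRABP2 stood at 0.28 and 0.82 CPM in wild-type and 1.37 and 2.03 in mutant T-lineage cells, and at 51.0 and 132 against 60.4 and 95.6 in the E lineage. Both mutant libraries lay above both wild-type libraries in the T lineage for CKLF, at 157 and 127 against 364 and 395 CPM, beside E-lineage values of 80.4 and 64.0 against 68.6 and 68.6. LRRIQ1 lay lower in mutant E-lineage cells, at 70.6 and 70.6 against 21.5 and 7.92 CPM. Positive values were found for EPAS1 (3.99), DNMT3L (2.69), WIPI1 (2.24), an autophagy gene at 2.06 and 2.61 against 11.6 and 15.0 CPM in the E lineage, and SPARCL1 (7.27), which reached 22.5 CPM in mutant library 2 and at most 2.70 in the other E-lineage sums.

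CRIP1, a LIM-domain protein, gave 2.29 in the M and 2.15 in the N lineage. Its T-lineage values were 150.3 and 109 against 34.1 and 23.5 CPM, while the N lineage held 281 and 185 against 249.7 and 223. In the N lineage S100A11 gave -1.21, LAPTM4B -1.86, SERPINE2 -4.6 and DNMT3L 3.4. SERPINE2 was abundant in N-lineage cells, at 874 and 1489 CPM in wild type and 669 and 775 in the mutants.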

How the results depend on the processing

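Counts of called genes depended on the test and the filter. With DESeq2 they were 596 in whole libraries, 707, 92, 189 and 11 in the T, E, M and N lineages, and for the Day 12 against Day 14 difference 137 in whole libraries and 201, 50, 74 and 8. Without the low-count filter they were 3 (T), 493 (E), 64 (M) and 256 (N), and for the day difference 262 (E), 27 (M) and 129 (N). With the Day 12 libraries alone they were 4 (T), 4 (E), 5 (M) and 2 (N). Uncorrected counts gave 2 in the T lineage, cells with a score margin of 0.5 gave 2 in the T lineage, and libraries of at least 20 cells gave 4 in the E lineage. Leaving out 1 library at a time, with the spread of a lone library taken from the other groups, gave 0 to 73 in whole libraries (73 without WT_d12 replicate 2), 0 to 19 in the T lineage (19 without WT_d12 replicate 2), 0 to 21 in the E lineage (21 without mt_d12 replicate 1) and 0 in the M and N lineages. Without WT_d12 replicate 2 the median log2 difference of all genes moved to 0.127 in whole libraries and 0.142 in the E lineage. Differences between lineages numbered 0 (E minus T), 1 (M minus T) and 0 (N minus T) without the library as a block. The causes were not tested.

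With the replicate block (batch numbers of the labels, Day 12 libraries alone) the calls were 76 in the T, 16 in the E and 57 in the N lineage, and 0 in whole libraries. The pairing rests on the number in the labels, with 2 pairs. The paper states that its Day 14 embryos of both genotypes came in 2 batches, and it does not describe a pairing of the Day 12 libraries. The M lineage with the replicate block, the M lineage without WT_d12 replicate 2 and the N lineage with at least 20 cells could not be fitted.

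Leaving out 1 library moved the share difference between -18.4 and 9.37 points in the T lineage, between -7.83 and 3.56 in the E lineage (3.56 without WT_d12 replicate 2, 1.29 without mt_d12 replicate 2), between -0.953 and 18.4 in the M lineage and between -3.57 and -0.584 in the N lineage.

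Of 82 log2 differences of named genes, 71 had the same sign in every alternative run, and of 998 alternative values 17 had another sign, 83 passed 5% where the main value had not, and 4 fell short where it had. Leaving out 1 library at a time turned the sign of 11 of the 82 differences. Some alternatives repeat another fit, as libraries of at least 20 cells did in the T, E and M lineages. In the E lineage the values ran from -1.67 to 5.30 for TBXT, -3.12 to 1.61 for MIXL1, -4.48 to 4.73 for MESP1, -2.69 to 9.36 for EOMES and -3.63 to 1.20 for LHX1, each highest without WT_d12 replicate 2. They ran from -1.84 to 4.02 for ISL1, -0.62 to 4.87 for BMP4 and -0.52 to 4.12 for CDX2, and were -0.06, -0.62 and -0.52 without WT_d12 replicate 1, as with at least 20 cells, and -1.84, -0.59 and -0.23 without mt_d12 replicate 2. Elsewhere they ran from -1.41 to 0.43 for ISL1 in the T lineage (0.43 without WT_d12 replicate 2), -1.22 to 0.18 for CDX2 in the M lineage (0.18 without mt_d12 replicate 2) and -0.03 to 0.35 for EOMES in the N lineage (-0.03 without WT_d12 replicate 1).

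For list counts, uncorrected counts and leaving out WT_d12 replicate 1 were alternatives chosen after seeing the data. Without WT_d12 replicate 1, 11 of 15 HOX genes and 14 of 20 streak genes lay below in the E lineage, beside 41.5% of all genes. Within 1.5 times under both alternatives were the counts above of hypoxia genes (T, E and N lineages), amnion genes (E), trophoblast regulators (E) and invasive trophoblast genes (T) and the count below of trophoblast regulators (T). Genes beyond both wild-type libraries stay counted without WT_d12 replicate 1, so that alternative could not lower a count and is a weak check. The background rose with it. Trophoblast regulators below in the T lineage went from 8 to 9 of 16, while the share of all genes below went from 18.8% to 43.4%. In the M lineage, which has no second wild-type library, the hypoxia count above and the BMP count below were compared with uncorrected counts alone. Other counts moved further without WT_d12 replicate 1, among them BMP genes above in the T lineage (3 to 6) and below in the E lineage (0 to 4), hypoxia genes below (2 to 6), trophoblast regulators above (1 to 5) and amnion genes above (3 to 7) in the T lineage, and endoderm genes below in the N lineage (6 to 15). Among the limits on precision are the number of libraries and the 15 E-lineage and 0 M-lineage cells of WT_d12 replicate 1. Which limit weighs most was not compared, and intervals cover counting error only.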

Other observations

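Among lists not described above, epithelial genes lay below both wild-type libraries for 4 of 9 members in the T lineage and above for 1, and above for 2 and below for 0 in the E lineage. Over all genes, 28.9% lay above and 18.8% below in the T lineage, and 22.0% and 14.9% in the E lineage. Ribosomal protein genes lay above for 3 and below for 2 of 11 in the T lineage, and the mitochondrially encoded RNA took 3.80% and 6.76% of the UMIs in wild type and 6.52% and 6.92% in the mutants. Of 3 further placental endocrine genes with an identifier, FDX1, a ferredoxin of steroid synthesis, was at 936 and 608 CPM in wild-type and 543 and 403 in mutant T-lineage cells. HSD17B2, a steroid dehydrogenase, was at 204 and 72.5 against 244 and 323 CPM, and KISS1 stayed under 0.5 CPM in the T lineage of every library. None passed the test.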
